A study of Sus scrofa with 24 samples.

Results

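The levels of 8 genes of sterol metabolism were measured in the oxyntic mucosa, the acid-secreting lining of the stomach, of 24 piglets. The genes were ACAT2, HMGCS1, FDPS, SQLE, MSMO1, NSDHL and HSD17B7, which encode enzymes of cholesterol synthesis, and STARD4, which encodes a carrier of cholesterol between membranes. They were taken by gene symbol from 10882 genes with a named transcript cluster, the group of array probes that measures 1 transcript, and each of the 8 had 1 such cluster. Transcripts were measured as total RNA with 1 array per piglet, in 4 groups of 6. The piglets were of a (Great York × Pietrain) × 'Dalland' cross, were born by caesarean section, were fed artificially and were killed at 3 weeks of age. All had received colostrum of sows after pasteurization and, on days 1 to 3, a starter of Clostr. glycolicum, Parabacteroides spp. and Lactob. Amylovorus. On days 3 to 4 the complex association (CA) groups received diluted faeces from an adult sow and the simple association (SA) groups a placebo. Each association was divided over a control diet (CON) and a diet with medium chain triglycerides (MCT), in which, per the study, coconut oil replaced soy and palm oil. Per the labels the associations were housed in separate rooms, in which case association and room cannot be told apart, whereas the wording of the study's methods leaves it unclear whether groups shared a pen or room. The oil put in cannot be told apart from the oils taken out. Per the study the piglets came from 6 sows and the groups were balanced for litter, weight and sex. The labels name no litter, sex or pen for any piglet. The 8 genes had been selected on their log2 differences between groups in these same arrays. The differences between groups are therefore given as a description, without a test, and only measures that the choice did not use directly were tested.

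Cholesterol is built from acetyl-CoA in a chain of reactions that passes through mevalonate, the isoprenoid farnesyl diphosphate, squalene and a series of sterol rings. When membranes of the endoplasmic reticulum run low in cholesterol, the transcription factor SREBP-2 is released by proteolysis and raises transcription of nearly every enzyme of the chain, and STARD4 is a known target of the same factor. In the oxyntic mucosa sterols are needed for the membranes of the short-lived surface cells and of the parietal cells, whose secretory membranes are large.

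The values were array intensities on a log2 scale, on which a difference of 1 is a doubling. The median intensity per array was 23.13 to 26.44. The arrays of CA CON pig 4, CA MCT pig 10 and SA MCT pig 22 stood apart. Their median correlations with the other arrays were 0.9461, 0.9751 and 0.981, against 0.9866 to 0.9923 for the rest, and results are also given without them. The tissue label was borne out by its markers. ATP4A, a subunit of the proton pump of parietal cells, was brighter than 99.9% of genes, and the pepsinogen gene PGA5 of chief cells was among the brightest of all, whereas the measured markers of squamous epithelium, KRT5 and IVL, summed to 15.5 to 32.9 units of intensity. All 8 sterol genes lay in the brighter part of the array, from STARD4, brighter than 63.7% of genes, to MSMO1, brighter than 96.3%. In such whole tissue, fewer cells of a type and less RNA per cell cannot be told apart.

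ACAT2 encodes the cytosolic thiolase that joins acetyl-CoA units in the first step, and is not the sterol acyltransferase that once bore the same name. Its log2 intensity ran from 6.59 over a median of 7.14 to 7.61 in SA CON and from 6.42 over 6.77 to 7.45 in SA MCT. In CA CON it ran from 6.20 over 6.66 to 7.25, and in CA MCT from 6.49 over 6.92 to 7.24. The mean was highest in SA CON, but all groups overlapped, and the SD within SA CON, 0.42, was the widest of the 8 genes in that group. The lowest ACAT2 value of all, in CA CON, was that of pig 4.

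HMGCS1 encodes the cytosolic synthase that makes HMG-CoA, an early intermediate on the way to mevalonate. It ran from 8.58 over a median of 8.99 to 9.30 in SA CON and from 8.52 over 8.73 to 8.87 in SA MCT. In CA CON the values were 8.27, 8.57 and 8.80 for the lowest, the median and the highest piglet, and in CA MCT 8.24, 8.53 and 8.91. Of the 6 SA CON piglets, 3 lay above every piglet of the other groups, and the other 3 lay within the range of those groups.

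FDPS, the synthase of farnesyl diphosphate from which both sterols and protein prenyl groups are made, ran from 6.94 over 7.11 to 7.48 in SA CON and from 6.74 over 6.99 to 7.26 in SA MCT. It ran from 6.88 over 7.00 to 7.21 in CA CON and from 6.57 over 6.84 to 7.10 in CA MCT. The CA MCT piglets had the lowest mean, and 2 SA CON piglets exceeded all others.

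SQLE encodes squalene epoxidase, which adds oxygen to squalene before the ring is closed and is a further step of control. It ran from 7.97 over 8.19 to 8.38 in SA CON and from 7.58 over 7.91 to 8.05 in SA MCT. In CA CON it ran from 7.50 over 7.94 to 8.15, and in CA MCT from 7.24 over 7.89 to 8.09. The SA CON piglets were the most compact of the 4 groups for this gene, with an SD of 0.14, and 4 of them lay above all 18 other piglets.

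MSMO1, NSDHL and HSD17B7 encode the oxidase, the decarboxylating dehydrogenase and the ketoreductase that act together to take methyl groups off the sterol ring. MSMO1 ran from 9.09 over 9.33 to 9.59 in SA CON, from 9.05 over 9.16 to 9.41 in SA MCT, from 8.84 over 9.35 to 9.58 in CA CON and from 8.94 over 9.23 to 9.41 in CA MCT. The medians of SA CON and CA CON were thus nearly alike for MSMO1, and only 3 of 6 SA CON piglets lay above the CA CON median. NSDHL ran from 7.80 over 8.06 to 8.33 in SA CON, from 7.60 over 7.95 to 8.10 in SA MCT, from 7.69 over 7.86 to 7.92 in CA CON and from 7.68 over 7.87 to 7.95 in CA MCT. For NSDHL the CA groups were compact, with SDs of 0.09 and 0.11 against 0.20 and 0.18 in the SA groups, and 5 of 6 SA CON piglets exceeded the CA CON median. HSD17B7 ran from 6.28 over 6.80 to 6.89 in SA CON, from 6.26 over 6.47 to 6.67 in SA MCT, from 6.02 over 6.50 to 6.69 in CA CON and from 6.14 over 6.62 to 6.81 in CA MCT. The SA CON piglets fell apart for HSD17B7, with 4 in the upper range and 2 among the low piglets of the other groups.

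STARD4, the one gene of the 8 that makes no enzyme, ran from 6.07 over 6.46 to 6.64 in SA CON and from 6.14 over 6.27 to 6.29 in SA MCT. It ran from 5.88 over 6.13 to 6.83 in CA CON and from 5.88 over 6.04 to 6.32 in CA MCT. The highest STARD4 value of all 24 piglets was that of CA CON pig 4, whose array stood apart, and the SA MCT piglets were close together, with an SD of 0.059.

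**Figure D1:**
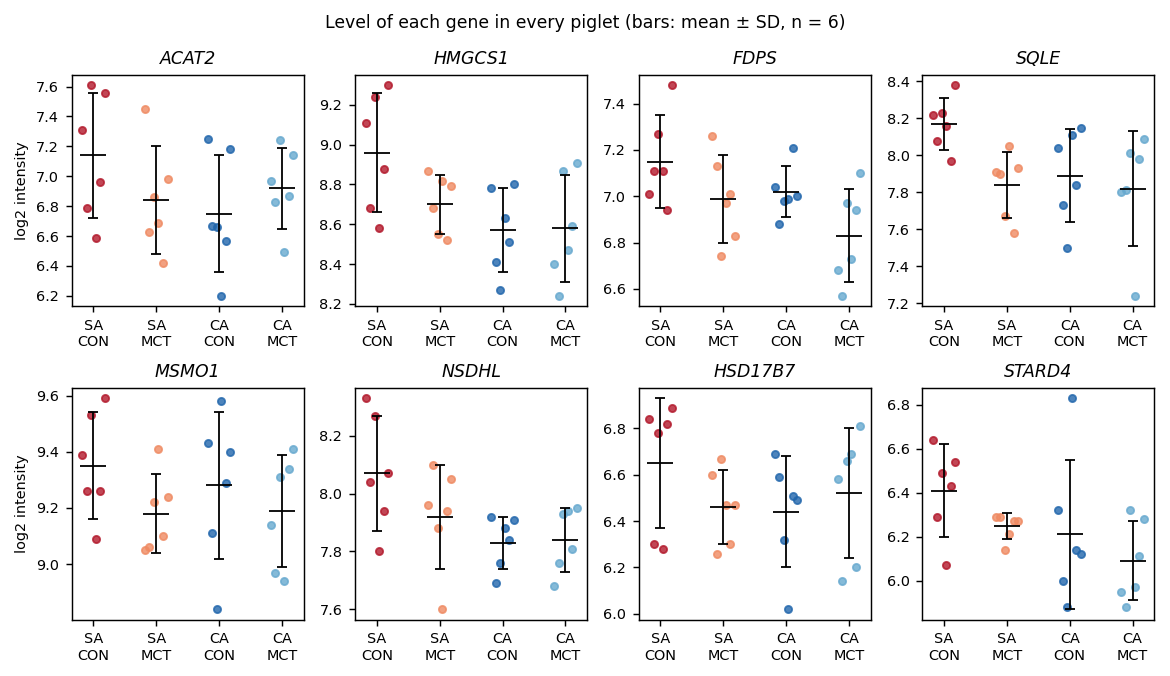
Log2 intensity (vertical axis) of each gene in every piglet of the 4 groups (horizontal axis), points for piglets and bars for the mean ± SD, n = 6. The SA CON mean is the highest of the 4 for each gene, the groups overlap for each gene, and the vertical axes differ between panels. The genes had been selected on group differences.

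The SA CON mean was the highest of the 4 group means for all 8 genes, while the order of the remaining groups changed from gene to gene. The gap from SA CON to the next group was wider than the pooled SD of the 2 groups for 3 genes, namely HMGCS1 (gap 0.26, SD 0.23), SQLE (0.28, SD 0.20) and STARD4 (0.16, SD 0.15). For the other 5 genes it stayed within the spread, as did every gap between lower neighbours, 0 of 16. Neither count was taken over all genes, and the 8 had been selected on group differences. Both counts are therefore description only. Over the 8 genes, the mean deviation of a piglet from the overall mean ran from -0.10 over 0.20 to 0.42 in SA CON, from -0.17 over -0.04 to 0.12 in SA MCT, from -0.28 over -0.05 to 0.12 in CA CON and from -0.28 over -0.12 to 0.15 in CA MCT. SA CON was thus a mixed group. Pigs 13, 15 and 18 had all 8 genes above the overall median, whereas SA CON pig 16 had 2. Outside SA CON, pig 12 of CA MCT also had all 8 above the median, and pig 3 of CA CON and pig 8 of CA MCT had none.

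On the control diet, CA piglets had lower mean levels than SA piglets for 8 of 8 genes, with a median log2 difference of -0.23. Over all 10882 genes 50.1% were lower in CA and the median difference was -0.0004, and among the brighter 6529 genes, to which the 8 belong, 62.6% were lower. The difference was -0.40 ± 0.13 (limma SE, n = 6 per group) for HMGCS1, 1.32-fold higher in SA CON, and -0.38 ± 0.19 for ACAT2, 1.30-fold higher. ACAT2, however, differed by -0.27 without pigs 4, 10 and 22 and by -0.25 with array weights, and its place in the order of the genes was not settled. Of the later enzymes, SQLE differed by -0.28 ± 0.13, NSDHL by -0.24 ± 0.091 and HSD17B7 by -0.21 ± 0.14. FDPS, at -0.13 ± 0.10, and MSMO1, at -0.08 ± 0.11, had the narrowest gaps. STARD4 differed by -0.20 ± 0.12, and by -0.32 when pigs 4, 10 and 22 were left out, since pig 4 held the high value. Without those 3 piglets MSMO1 moved from -0.08 to -0.14 and HSD17B7 from -0.21 to -0.13, with 8 of 8 genes still lower in CA and a median of -0.26.

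In the SA piglets, the MCT diet went with lower mean levels than the control diet for 8 of 8 genes, with a median of -0.18, where 47.5% of all genes and 46.1% of the brighter genes were lower. This comparison shares the SA CON piglets with the one above and is no second measurement of them. The difference was -0.33 ± 0.13 for SQLE, 1.26-fold higher on CON, -0.30 ± 0.19 for ACAT2 and -0.26 ± 0.13 for HMGCS1. The remaining 5 genes differed by -0.15 to -0.19, with SEs of 0.091 to 0.14. SQLE had the widest gap here, with all 6 SA MCT piglets below the SA CON median.

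In the comparisons without SA CON piglets the differences were small and of mixed sign. On the MCT diet 5 of 8 genes were lower in CA than in SA, against 51.9% of all and 59.8% of the brighter genes, with a median of -0.05 and a range from -0.16 (FDPS and STARD4) to 0.09 (ACAT2). In the CA piglets 4 of 8 were lower on MCT than on CON, against 49.5% of all and 43.1% of the brighter genes, with a median of -0.03 and a range from -0.19 ± 0.10 for FDPS to 0.17 ± 0.19 for ACAT2. That median changed sign, to 0.02, without pigs 4, 10 and 22. The interaction, like the averages that follow it, includes the SA CON piglets and is no separate measurement of them. It was taken as the diet difference in CA piglets less that in SA piglets. It was below 0 for 1 of 8 genes, against 51.0% of all and 46.7% of the brighter genes, and the median was 0.21. ACAT2 had the widest interaction, 0.47 ± 0.28, followed by HMGCS1 at 0.28 ± 0.19, HSD17B7 at 0.27 ± 0.19 and SQLE at 0.26 ± 0.18. For FDPS (-0.02 ± 0.15), STARD4 (0.04 ± 0.17) and MSMO1 (0.08 ± 0.16) the estimate was smaller than its SE. Averaged over the diets, CA was lower for 8 of 8 genes, against 50.5% of all and 64.3% of the brighter genes, by -0.04 (MSMO1) to -0.26 (HMGCS1). Averaged over the associations, MCT was lower for 8 of 8, against 49.0% of all and 43.6% of the brighter genes, by -0.05 (HSD17B7) to -0.20 (SQLE).

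**Figure D2:**
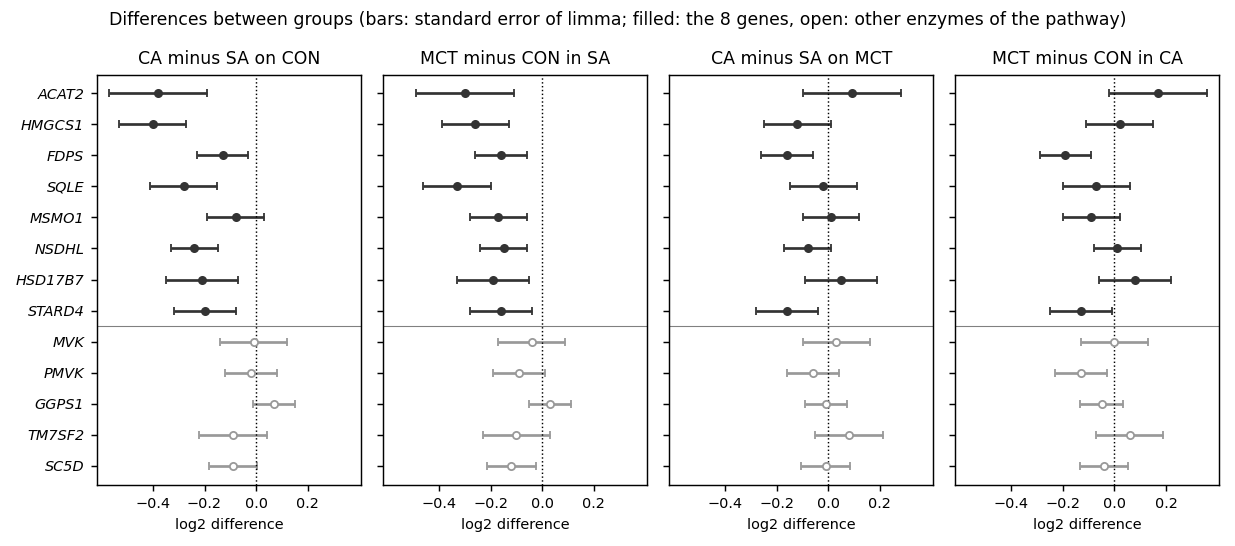
Log2 difference between group means (horizontal axis, dotted line at 0) for the 8 genes (filled) and the 5 other measured enzymes of the pathway (open), with bars for the standard error of limma, n = 6 per group. All 8 filled points lie left of 0 in the first and second panels, both of which use the SA CON piglets, and on both sides of 0 in the others.

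Across the whole array no gene passed an adjusted p under 0.05 in limma in any of these 7 comparisons (0.0% of 10882 genes). At an unadjusted p under 0.05 there were 463 genes for CA against SA on CON, 289 on MCT, 326 for MCT against CON in CA, 222 in SA and 275 for the interaction. The differences of the 8 genes thus stood in comparisons in which no single gene was called.

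Other genes of sterol metabolism, listed by function, were measured beside the 8, and for these the limma test applied. Of 17 further enzymes of the pathway, 5 had a named cluster and none passed in any comparison. MVK and PMVK, the kinases that phosphorylate mevalonate, differed between CA and SA on CON by -0.01 ± 0.13 and -0.02 ± 0.10, and GGPS1, which leads isoprenoids away from sterols, by 0.07 ± 0.082. TM7SF2, a sterol reductase, differed by -0.09 ± 0.13 and SC5D, a sterol desaturase of the last steps, by -0.09 ± 0.094. Between diets in SA piglets these 5 genes differed by -0.12 (SC5D) to 0.03 (GGPS1). They thus showed smaller differences than most of the 8, but since the 8 had been chosen with differences known, the contrast is no result. The listed genes without a named cluster were not analysed here.

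Of 19 genes of sterol control, uptake and transport, 12 were measured and none passed. INSIG1, an SREBP target whose product holds SREBP in the endoplasmic reticulum, differed by -0.11 ± 0.11 between CA and SA on CON (adjusted p = 0.943 in limma), and SCAP, the escort of SREBP, by -0.05 ± 0.11. MYLIP, a ubiquitin ligase gene and a target of the sterol sensor LXR, had the widest gap of this list, -0.35 ± 0.17 (adjusted p = 0.943 in limma). The remaining genes of the list, among them the lysosomal exporters NPC1 and NPC2 and the STARD4 relatives STARD3 and STARD5, lay between -0.11 and 0.20. Of 8 genes of LXR and cholesterol export 5 were measured, with differences of -0.09 to 0.07 on CON, and none passed. Of 12 genes of fatty acid synthesis, 9 were measured. On CON 8 of these were lower in CA than in SA, against 50.1% of all and 62.6% of the brighter genes on the array. The lower genes of the list included SCD, the desaturase (-0.33 ± 0.18, adjusted p = 0.943 in limma), and ACLY, which supplies cytosolic acetyl-CoA to both pathways (-0.22 ± 0.098, adjusted p = 0.943 in limma). In SA piglets, however, 7 of the same 9 were higher on MCT than on CON and 2 were lower. Of all genes 47.5% were lower there, and of the brighter genes 46.1%. None of the 9 passed. Of 8 genes of ketone body metabolism, which uses HMG-CoA in mitochondria, 4 were measured and lay between -0.09 (SLC16A1) and 0.25 (ACSS1) on CON, again with none passing.

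Within the groups, piglets differed among themselves, and this variation had not been used to choose the genes. With the group means removed, HMGCS1 was related to each of the other 7 genes and to the 17 measured genes of the lists of enzymes and of sterol control, 24 relations in all, by permutation within groups. MSMO1 followed HMGCS1 most closely, with r = 0.78 (adjusted permutation p = 0.00072) and rho = 0.75 over 24 piglets. ACAT2 followed at r = 0.72 (adjusted permutation p = 0.0033, rho = 0.70), STARD4 at r = 0.68 (adjusted permutation p = 0.0033, rho = 0.80) and SQLE at r = 0.67 (adjusted permutation p = 0.0033, rho = 0.76). Piglets high in HMGCS1 for their group thus tended to be high in these genes too. No group was tested by itself. FDPS reached r = 0.60 (adjusted permutation p = 0.0264, rho = 0.62) and HSD17B7 r = 0.59 (adjusted permutation p = 0.0465), while the rho of HSD17B7, 0.55, missed the threshold (adjusted p = 0.051, permutation). NSDHL was the reverse case, with r = 0.53 just missing it (adjusted permutation p = 0.0505) and a rho of 0.59 passing (adjusted permutation p = 0.0325).

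Without the 2 piglets farthest from the median of HMGCS1, pigs 16 and 18 of SA CON, r was 0.74 for MSMO1, 0.70 for SQLE, 0.66 for ACAT2, 0.62 for STARD4, 0.57 for FDPS, 0.49 for HSD17B7 and 0.48 for NSDHL. Over the 24 piglets the relations thus remained above 0 without these extremes of SA CON. Without pigs 4, 10 and 22, whose arrays stood apart, r was higher for 6 of the 7 genes and equal for FDPS, from 0.60 for FDPS over 0.74 for NSDHL to 0.88 for STARD4, and all 7 relations passed. In the CA piglets alone, n = 12, r lay between 0.45 (HSD17B7) and 0.81 (MSMO1), rho between 0.46 and 0.83, and 5 of 7 relations passed by permutation, for r as for rho. In the SA piglets alone r lay between 0.43 (NSDHL) and 0.87 (ACAT2), rho between 0.48 and 0.90, with 5 of 7 passing for r and 3 for rho. On the control diet alone r lay between 0.46 (FDPS) and 0.86 (MSMO1), with 5 of 7 passing for r as for rho. On the MCT diet alone r lay between 0.26 (NSDHL) and 0.88 (STARD4), with 2 of 7 passing for r, FDPS and STARD4. SQLE, ACAT2 and MSMO1, at 0.62, 0.61 and 0.66, missed the threshold for r. For rho 1 passed, SQLE at 0.82 (adjusted permutation p = 0.029), and FDPS and STARD4 missed. Some relations rested on the extreme piglets in some of these subsets. Without the 2 farthest piglets the r of FDPS went from 0.46 to -0.11 on the control diet and from 0.50 to 0.07 in SA. That of HSD17B7 went from 0.45 to 0.18 in CA and from 0.54 to 0.14 on the MCT diet, and that of NSDHL from 0.26 to 0.09 on the MCT diet. All 7 relations were above 0 in each of the 4 subsets with all their piglets. The subsets overlap and come from the same 24 piglets, so they are no separate measurements.

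**Figure D3:**
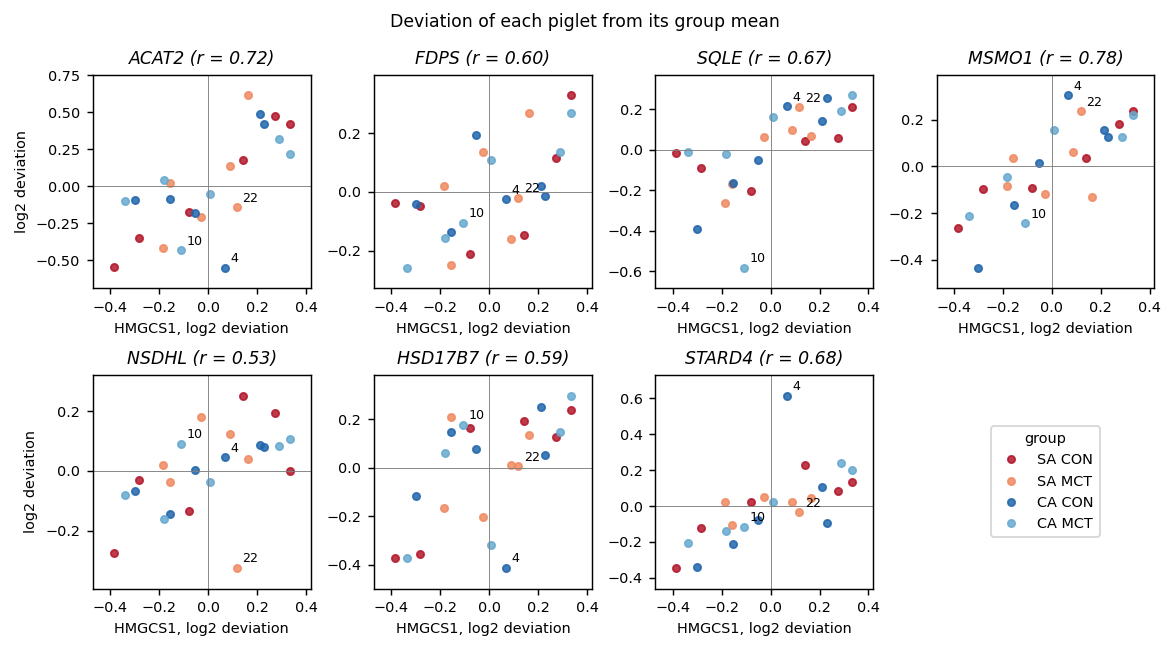
Deviation of each piglet from its group mean in HMGCS1 (horizontal axis, log2) and in the other 7 genes (vertical axis, log2), coloured by group, with r over 24 piglets. The points of each panel run from lower left to upper right, and pigs 4, 10 and 22, numbered, lie off the trend for ACAT2, SQLE, NSDHL, HSD17B7 or STARD4.

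Pig 4 was the clearest departure. With HMGCS1 near its group mean (0.067), it lay 0.615 above the CA CON mean in STARD4 and 0.304 above in MSMO1, but 0.551 below in ACAT2 and 0.413 below in HSD17B7 on the log2 scale. The 8 genes thus did not move as 1 block in that piglet. Its array had the lowest correlation with the others, and its part in these deviations was not tested. Over the 24 piglets, ACAT2 was related to the correlation of the array with the others at r = 0.47 (adjusted permutation p = 0.0623) and rho = 0.50 (adjusted permutation p = 0.0117), r falling to 0.23 without the 2 farthest arrays. STARD4 had a wider r in the opposite direction, -0.59 (adjusted permutation p = 0.42, rho = -0.23), which went to -0.23 without the 2 farthest arrays. None of the other 7 genes passed by r or rho.

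All 28 pairs among the 8 genes had r above 0, with a median of 0.43. MSMO1 and SQLE (0.77) and MSMO1 and STARD4 (0.74) were close besides HMGCS1 and MSMO1, as were ACAT2 and HSD17B7 (0.64). SQLE and HSD17B7 were unrelated over 24 piglets, at 0.01, and reached 0.34 without pigs 4, 10 and 22. Over these 21 piglets the median of the 28 pairs was 0.62 and the lowest pair was FDPS with HSD17B7 at 0.22. Over all 24 piglets HMGCS1 stood closest to the mean of the other 7, at r = 0.96, and HSD17B7 farthest, at 0.39, whereas over the 21 piglets HMGCS1 was at 0.98 and the farthest was FDPS, at 0.51.

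Against all other 10881 genes, HMGCS1 had a median r of -0.01, with the 5th and 95th percentiles at -0.45 and 0.44, and 2.93% of genes exceeded 0.5. All 7 of the sterol genes did. Only 0.0368% of genes had a higher r than MSMO1, 0.138% a higher r than ACAT2 and 2.28% a higher r than NSDHL. The other genes of the pathway stayed lower. SC5D reached r = 0.48 (adjusted permutation p = 0.066) and NPC1, which lets cholesterol out of lysosomes, r = 0.45 (adjusted permutation p = 0.103). MVK (0.08), PMVK (0.03), GGPS1 (-0.02) and TM7SF2 (0.06) lay in the middle of all genes. INSIG1 lay lower, at -0.18, and 75.0% of genes had a higher r. None of the 17 passed.

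**Figure D4:**
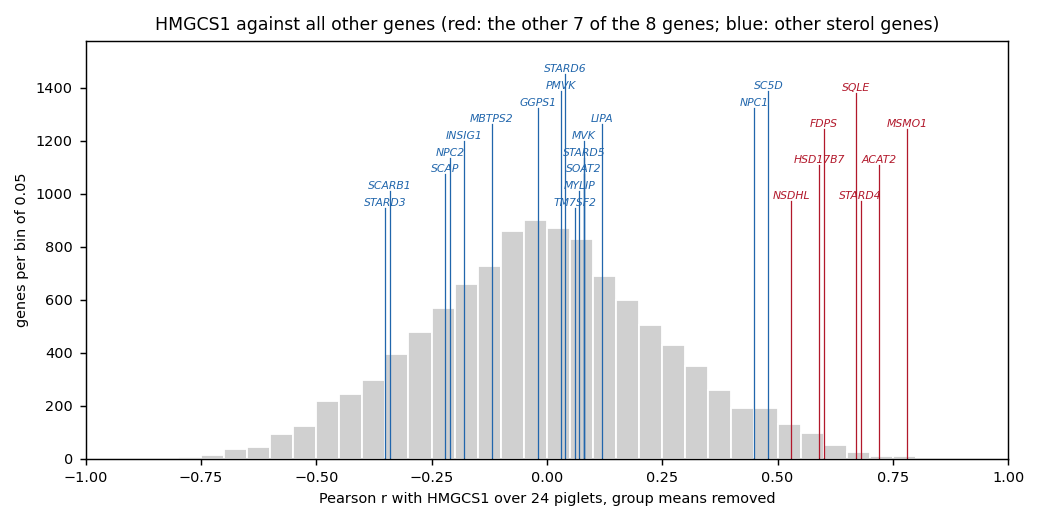
Number of genes (vertical axis) by Pearson r with HMGCS1 over 24 piglets, group means removed (horizontal axis, bins of 0.05), with lines at the other 7 genes (red) and at 17 other sterol genes (blue). The red lines lie at 0.53 to 0.78, beyond most of the histogram, and the blue lines between -0.35 and 0.48. The genes in red had been chosen on group differences, so the contrast is no result.

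Marker genes of several cell types moved with HMGCS1 as well, 12 lists in all. By r none of the 12 passed, and by rho 3 did. Between piglets of a group, the summed intensity of 4 mucous cell markers, led by GKN2 of the surface epithelium, was related to HMGCS1 at r = 0.59 (adjusted permutation p = 0.0559, rho = 0.63 with adjusted permutation p = 0.0248). The 4 measured markers of dividing cells, TOP2A, CDK1, CCNB2 and MCM4, gave r = 0.55 (rho = 0.63, adjusted permutation p = 0.0248) and the 5 of intestinal-type epithelium, led by VIL1, r = 0.58 (rho = 0.60, adjusted permutation p = 0.0248). Fibroblast markers, led by COL1A1, ran the opposite way at r = -0.57 (adjusted permutation p = 0.0567), as did smooth muscle markers at r = -0.51 (adjusted permutation p = 0.0567). Parietal cells (r = -0.29) and leukocytes (r = 0.02) were among the 7 other lists. Piglets high in HMGCS1 thus had more mucous, dividing and intestinal-type marker signal and less fibroblast and smooth muscle signal, although only the former 3 passed, and by rank. Without pigs 4, 10 and 22 the rho of fibroblasts (-0.59) and of smooth muscle (-0.54) passed as well, each with an adjusted permutation p of 0.0406, so that 5 lists passed by rank and none by r. Without the 2 farthest piglets, r was 0.56 for mucous cells, 0.41 for dividing cells, 0.44 for intestinal-type epithelium, -0.41 for fibroblasts and -0.40 for smooth muscle.

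The sums of these 5 marker lists were then held constant, a setting added after their values were seen. The permutation did not allow for these 5 fitted sums, so its p-values tend to be too low here. No relation is therefore counted as passed. With that limit, ACAT2 (r = 0.66), HSD17B7 (r = 0.65) and MSMO1 (r = 0.60) lay under the threshold by r. By rank only ACAT2 and HSD17B7 did, and MSMO1 missed (rho = 0.55, adjusted permutation p = 0.0779). SQLE (0.49), STARD4 (0.48), NSDHL (0.38) and FDPS (0.28) remained above 0 and missed the threshold. Compared with r without these sums, r went from 0.72 to 0.66 for ACAT2, from 0.59 to 0.65 for HSD17B7 and from 0.60 to 0.28 for FDPS. Sums of marker intensity do not hold the share of each cell type constant, and the changes in r were not tested.

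Between groups, the dividing cell markers were also highest in SA CON by their median. Their summed intensity was 243 to 544 with a median of 396 in SA CON, 314 to 380 with 355 in SA MCT, 264 to 410 with 371 in CA CON and 252 to 445 with 357 in CA MCT. All 4 markers were lower in CA than in SA on CON and lower on MCT than on CON in SA, by medians of -0.07 and -0.11, and none passed. Of all genes, 50.1% were lower in CA on CON and 47.5% lower on MCT in SA. Among the brighter genes the shares were 62.6% and 46.1%. All 5 fibroblast markers were higher in CA on CON (median 0.09), with sums of 6710 to 9720 in SA CON and 8320 to 9380 in CA CON, and all 4 smooth muscle markers were lower (median -0.11), with sums of 2790 to 5500 and 2930 to 3850. The part of these cells in the group differences of the 8 genes was not tested.

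Over all genes outside the lists, those most like the mean of the 8 standardized genes between piglets were REXO2, a mitochondrial RNA exonuclease (r = 0.84 over 24 piglets), SFXN1, a mitochondrial serine carrier (0.82), and RAN, a GTPase of nuclear transport (0.79). They were followed by CAPZA1, CLTC, PRDX1 and PPP2CA at 0.77 and CASK, BZW1 and MRPS10 at 0.74. The genes that ran most strongly the opposite way were TRPS1, a zinc finger transcription factor (-0.79), LAMA2, a laminin chain (-0.78), KLF8 (-0.77), TSHZ2 (-0.76) and CTNNA3 (-0.75). Of the 10 highest genes, 5 were also among the 10 highest without pigs 4, 10 and 22. These values are a description over 24 piglets that share the platform and the normalization.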

How the data were processed

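The deposited values were intensities. According to the labels, Affymetrix Porcine Gene 1.1 ST arrays were summarised by the authors with Robust Multichip Analysis (background correction, quantile normalization and summary of the probes), and log2 of the deposited intensity was used here. Of 27558 transcript clusters, 11939 carried 1 gene symbol in the annotation used, 416 several and 15203 none, and the latter were left out. For 958 symbols with more than 1 cluster the brightest was kept. No reading of array strip, scan date or litter was used.

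The 24 arrays were fitted with limma 3.58.1 (R 4.3.3) in a single model that held a mean for each of 4 groups, with Benjamini-Hochberg adjustment over 10882 genes and a threshold of 0.05. Relations used values with group means removed and 100000 permutations within groups, two-sided, adjusted over the relations of a family (24 for HMGCS1, 7 within an association or diet, 12 marker lists, 8 for array correlation). Litter was not known per piglet, so piglets of the same sow were treated as independent in fits and relations alike. The fits and relations were tested on simulated data. The members, the lists and the tests were chosen with earlier results of these data known. The genes named were the 8, the measured genes of 5 lists, marker genes, and the 10 most and 5 least like genes. Promoter and protein sequences were not analysed here. Extraction is given as a Qiagen kit in the labels and otherwise in the methods. Arrays hold no read depth, and the number of piglets limits the precision.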

Additional observations from a re-analysis of the deposited data

Results flagged for a closer look

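SQLE was far lower in CA MCT pig 10 than in the other 5 piglets of that group, at a log2 intensity of 7.24 against 7.80 for the next lowest. The gap took 0.659 of the range of the group, above the critical value of Dixon's test for 6 samples. This was the only such value among the 8 genes in 4 groups (32 groups). Chance gives about 1 in 20 for each such group, so 1 value among 32 groups is no excess over chance. The array of pig 10 was among the 3 that stood apart, and its part in the value was not tested.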

How the results depend on the processing

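No paired analysis was possible because each piglet had a number of its own that no other group shared. Per the study litters were balanced over the groups, but the labels name no litter by which to pair. The number of genes passing changed in 2 comparisons. For CA against SA on MCT it was 1 with array weights (PSMA4, lower in CA) and 0 to 1 when single piglets were left out, the 1 being PSMA4 again, without SA MCT pig 22. For CA against SA over both diets it was 1 with array weights (RNF5, lower in CA) and 0 in the other settings. The number of relations of HMGCS1 that passed was 6, and 6 with all clusters of a symbol averaged or the arrays quantile normalized again. It was 7 without pigs 4, 10 and 22, where NSDHL passed too, at r = 0.74. With covariates the permutation p-values tend to be too low, since the permutation did not allow for the fitted covariates. With that limit, 7 lay under the threshold with array correlation as a covariate (NSDHL at r = 0.53, adjusted permutation p = 0.0498). With the sums of 5 marker lists as covariates 3 did, and SQLE, FDPS and STARD4 were lost. The median over the 8 genes of CA minus SA on CON was -0.19 to -0.26 under the other settings and -0.29 (without SA CON pig 16) to -0.18 (without SA CON pig 13) when single piglets were left out, and that of MCT minus CON in SA -0.18 to -0.21, and -0.25 (without SA CON pig 16) to -0.15 (without SA CON pig 18). The medians near 0 were less settled: -0.09 to -0.03 for CA minus SA on MCT, and -0.10 (without CA CON pig 3) to 0.02 (without CA MCT pig 10) for MCT minus CON in CA. The interaction median was 0.17 to 0.24 without single piglets and 0.13 with array weights. The cause of these shifts was not tested.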
